A study of Homo sapiens with 10 samples.

Results

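Polysomal and subpolysomal RNA were compared in Meg01 cells in which ATXN2 had been knocked down. Meg01 is a human megakaryoblastic leukaemia line. The comparison takes the arrays by their titles, 3 arrays of the polysomal pool (P2, P4, P5) against 2 of the subpolysomal pool (P1, P3), which makes 5 of the 10 arrays. The other 5 arrays hold the same pools, under the same numbers, from cells with a control hairpin. All cells received a lentivirus (multiplicity of infection 10) carrying either the ATXN2 hairpin sh95 or the control hairpin shc002, and all were sorted for GFP 48 hours later. Each lysate was spun through a 7% to 46% sucrose gradient, and RNA was pooled from fractions 1 to 8 as subpolysomal and from fractions 9 to 17 as polysomal. The series text gives the polysomal pool 8 fractions, while 9 to 17 make 9. The knockdown rests on 1 hairpin in 1 cell line, and the labels speak of 3 experiments without saying which arrays come from the same one.

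In a sucrose gradient an mRNA sediments further the more ribosomes it carries, so free mRNA particles and single ribosomes stay near the top and mRNAs under active translation move to the bottom. RNAs that are never translated, such as small nuclear and small nucleolar RNAs, are expected among the lighter fractions. Ribosomal protein and elongation factor mRNAs begin with a pyrimidine tract, the 5′ terminal oligopyrimidine (TOP) motif, through which mTOR and LARP1 hold them off or load them onto polysomes together. ATXN2 is a cytoplasmic RNA-binding protein that binds the poly(A)-binding protein PABPC1, is found on polysomes and enters stress granules.

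Values below are log2 intensities after quantile normalization, and differences are polysomal minus subpolysomal on that log2 scale. They show whether a transcript was rich or poor in the polysomal pool relative to the other transcripts on the array, and not which share of its molecules carried ribosomes. In bulk RNA, fewer cells with an mRNA and less of it per cell cannot be told apart. A gene is represented by its brightest probe, and 13067 genes were measured above background on at least 2 arrays. Over all of them the median difference was 0.03, and 7635 genes (58.4%) lay above 0.

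ATXN2 itself read 8.99 and 8.67 on the subpolysomal knockdown arrays P1 and P3. On the polysomal knockdown arrays P2, P4 and P5 it read 8.68, 8.69 and 8.64. With the control hairpin it read 9.31 and 9.87 in subpolysomal RNA and 9.18, 10.77 and 9.67 in polysomal RNA. The 5 knockdown arrays were lower than each of the 5 control arrays, which fits their labels. Between the pools of knockdown cells ATXN2 differed by -0.16 (SE 0.43, limma adjusted p 0.962).

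The arrays also differed within each pool. The first principal component took 52.2% of the variance and set P1 and P2 of both hairpins apart from P3 and P4, and the second, with 21.7%, separated the pools. Over 24501 probes subpolysomal knockdown array P1 correlated with polysomal P5 at 0.874, with P2 at 0.856 and with P4 at 0.740. Subpolysomal P3 correlated with P4 at 0.895, with P5 at 0.795 and with P2 at 0.639. P1 was thus closest to P5 and not to P2. The labels do not pair P1 with P2 or P3 with P4, so differences within these pairs are given beside the main values as an arrangement chosen after seeing the data. The highest deposited intensity was 29849 and 38625 on the 2 subpolysomal knockdown arrays and 11164 to 16263 on the 3 polysomal ones, and quantile normalization sets these equal. Control polysomal array P2 reached 140375. Of 13 megakaryocyte markers 6 (ITGA2B, GP1BA, PPBP, GATA1, FLI1 and NFE2) were above background on all 5 knockdown arrays, while PF4, VWF and GP1BB were among those not measured. Of 8 erythroid markers 5 were above background on all 5, with HBG2, a fetal globin, the brightest at 14.36, as were 4 of 6 mast cell and basophil markers, 1 of 8 monocyte and granulocyte markers and none of 7 lymphoid ones. The labels call the cells megakaryocyte.

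**Figure D1:**
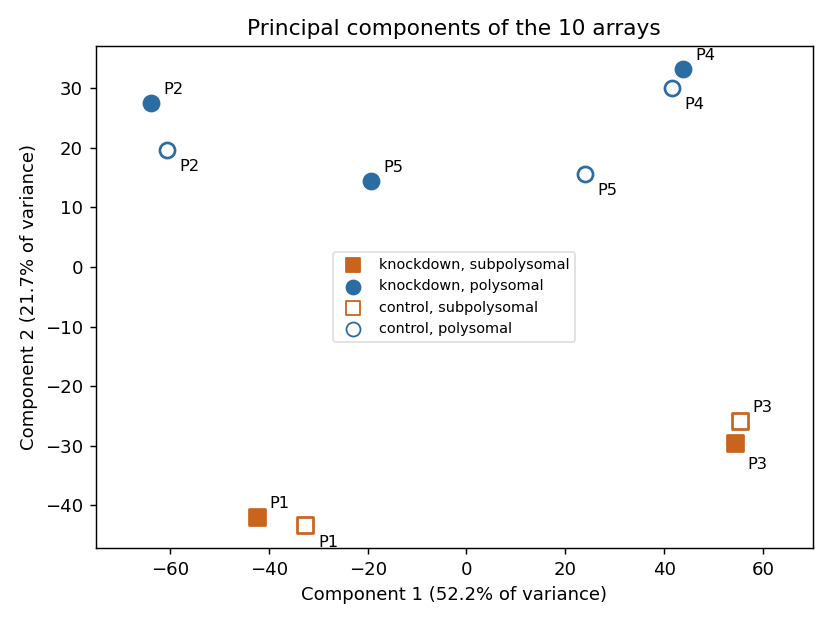
First and second principal components of the 10 arrays, from 24501 quantile-normalized probes; filled symbols are knockdown arrays, open symbols control arrays, squares subpolysomal and circles polysomal RNA. The pools part on the second axis (21.7% of variance), while the first (52.2%) parts P1 and P2 from P3 and P4.

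Relatively few single genes passed the test between the pools. Of 24501 probes limma called 6 higher in polysomal RNA (0.0245%) and 36 lower (0.147%) at a Benjamini-Hochberg adjusted p under 0.05, and 1947 (7.95%) had an unadjusted p under 0.05. By gene, 6 of 13067 were higher (0.0459%) and 12 lower (0.0918%). The higher mRNAs encode both malate dehydrogenases (MDH1 and MDH2), SRRT, LRP5, DCAF7 and CCDC32. The lower transcripts include the U6 small nuclear RNA, the small nucleolar RNA SNORD84, the long noncoding OIP5-AS1 and 9 mRNAs. The 20 called probes with no gene symbol were all lower, with differences of -3.94 to -0.51. With median centring in place of quantile normalization 2 probes were higher and 66 lower, and the median of all genes moved from 0.03 to -0.08. None of the 18 genes passed when only the 5 knockdown arrays were fitted, and none under a prior that was trended and robust. With the P number as a random block, since control and knockdown arrays of a number deviate together, 3 probes were higher and 16 lower, and 8 of the 18 genes were called. Without subpolysomal array P1 none of the 18 was called (0 probes higher and 1 lower), and without subpolysomal P3 none (0 and 2). Without polysomal P2, P4 or P5, 4, 3 and 1 of the 18 were called, with 2, 2 and 1 probes higher and 6, 10 and 2 lower.

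**Figure D2:**
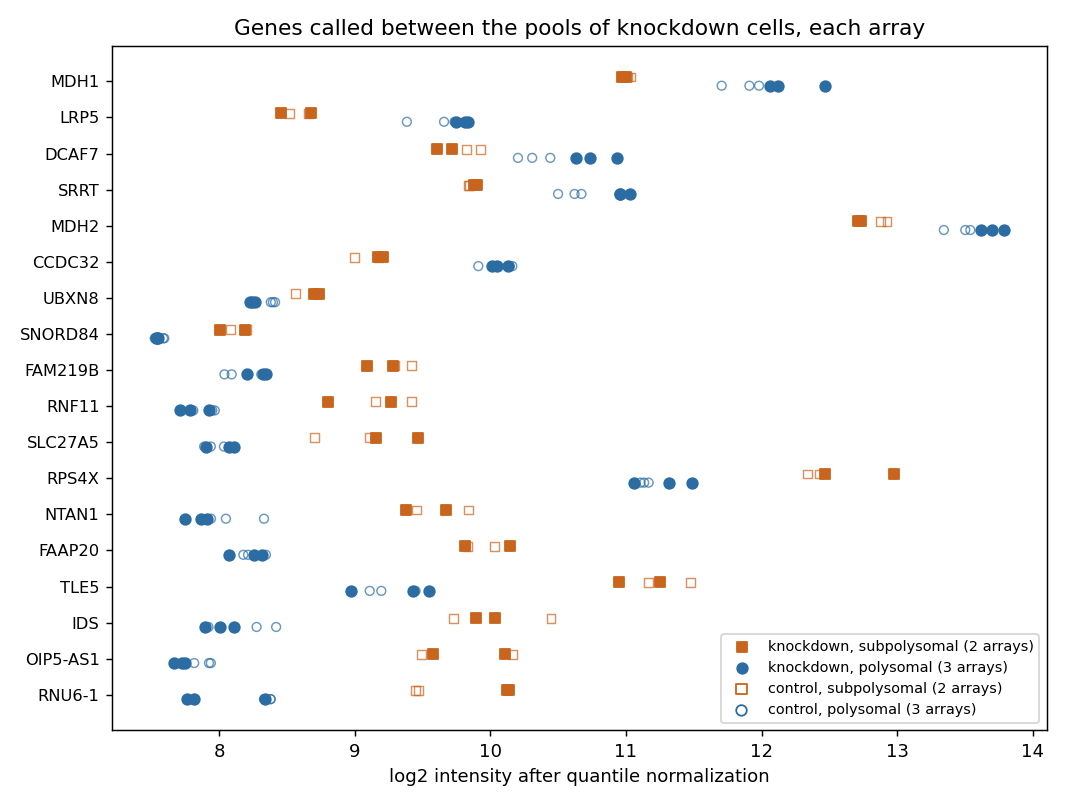
Log2 intensity after quantile normalization of the 18 called genes on each of the 10 arrays; filled symbols are knockdown and open symbols control arrays, squares subpolysomal and circles polysomal RNA. In each of the 18 genes the 3 filled circles lie on one side of both filled squares.

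Several noncoding RNAs were lower in polysomal than in subpolysomal RNA, and 3 of the 12 genes called lower make no protein, where 12181 of the 13067 genes tested are protein-coding. RNU6-1, a gene of the U6 RNA of the spliceosome (chromosome 15), read 10.14 and 10.12 in subpolysomal RNA and 7.77, 8.34 and 7.81 in polysomal RNA. Its level was 4.46-fold lower in the polysomal pool (difference -2.16, SE 0.16, adjusted p 0.0118), with no overlap between the pools. OIP5-AS1, a long noncoding RNA also known as Cyrano (chromosome 15), read 10.11 and 9.58 against 7.67, 7.72 and 7.75. It was 4.38-fold lower (-2.13, SE 0.21, adjusted p 0.026), again with every polysomal array below both subpolysomal ones. SNORD84, a box C/D small nucleolar RNA (chromosome 6), read 8.01 and 8.19 in subpolysomal RNA and was not above background on any polysomal array, at 7.54, 7.54 and 7.55. It was thus at least 1.38-fold lower (measured means differed by -0.56, adjusted p 0.0449, and 0.0541 with the P number as a block). SNORA61, a box H/ACA small nucleolar RNA, read 9.81 and 9.53 against 7.91, 8.18 and 7.75, which did not pass (-1.72, SE 0.23, adjusted p 0.0612).

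Other structural RNAs lay on the same side. In a list of small nuclear and other structural RNAs 13 of 22 were measured, 1 was called lower and none higher, and the median was -0.37 against 0.03 over all genes. For 10 of the 13 every polysomal array was below both subpolysomal arrays, a pattern found in 1219 of all 13067 genes (9.33%). RN7SK, which holds the elongation factor P-TEFb inactive in the nucleus, read 8.65 and 10.56 against 7.54, 7.92 and 7.57, with 1 polysomal array above background (-1.93, SE 0.65, adjusted p 0.467). TERC, the telomerase template RNA, was dim in both pools (-0.09). RN7SL1, the RNA of the signal recognition particle that works on translating ribosomes, was the 1 member on the other side at 0.47 (SE 0.36, adjusted p 0.848), but stood at -0.86 with the deposited values and -0.96 with median centring. By RefSeq gene type, 11 of 16 small nuclear RNA genes on the array were measured, 11 of 11 of them below 0 with a median of -0.96. Among small nucleolar RNA genes 123 of 279 were measured, 109 of them below 0 with a median of -0.12. A dim RNA can enter these counts only through the pool in which it is high, so they describe the measured genes and not the class. Relative to all genes the small nucleolar RNA median was -0.16 as reported, -0.04 with no filter and -0.41 over genes above background on every array, and that of small nuclear RNA genes -0.995, -0.38 and -1.68. Without subpolysomal P3 the small nuclear RNA genes stood at -0.16 and the list of structural RNAs at -0.13, and without subpolysomal P1 at -1.86 and -0.70.

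The hosts of small nucleolar RNAs had the lowest median of the 40 gene lists. These genes are spliced transcripts whose introns carry small nucleolar RNAs, and several of them begin with a TOP tract and are known to be degraded while being translated. All 17 that were measured lay below 0, with a median of -1.32, and in 10 of the 17 every polysomal array was below both subpolysomal arrays (58.8%, against 9.33% of all genes), but none was called. DANCR read 13.35 and 11.17 in subpolysomal RNA and 9.16, 8.12 and 9.64 in polysomal RNA (-3.29, SE 0.97, adjusted p 0.392). SNHG5 read 11.91 and 12.82 against 9.30, 10.22 and 9.16 (-2.81, SE 0.56, adjusted p 0.158). At the other end GAS5 (-0.04) and SNHG10 (-0.00) were near background on the arrays. Within pairs the list stood at -1.26 (P2 minus P1) and -1.49 (P4 minus P3), and its median relative to all genes was -1.61 to -1.25 with each knockdown array left out. In control cells the list's median was -1.23.

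Long noncoding RNAs as a type were close to the array floor. Of 798 on the array 352 were measured, with a median of -0.04, 1 called lower (OIP5-AS1) and none higher. In 77 of the 352 the polysomal arrays were all below the subpolysomal ones (21.9%, against 9.33% of all genes), and in 19 all above (5.4%, against 14.4%). PVT1, a transcript beside MYC, read 7.88 and 9.32 against 7.54, 7.76 and 7.52 (-0.99, SE 0.43, adjusted p 0.652). KCNQ1OT1 stood at -0.00 (SE 0.05) and HCP5 at 0.07 (SE 0.07, but -0.04 with median centring, where the median of all genes was -0.08). MicroRNA genes, 79 measured of 561, had a median of -0.04 and no call. The long noncoding median relative to all genes was -0.07 as reported, -0.02 with no filter and -0.53 over genes above background on every array, and the microRNA median -0.07, -0.01 and -0.38. Replication-dependent histone mRNAs, which end in a stem-loop in place of a poly(A) tail, were measured for 38 of 58 genes and stood at -0.09, with no call.

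**Figure D3:**
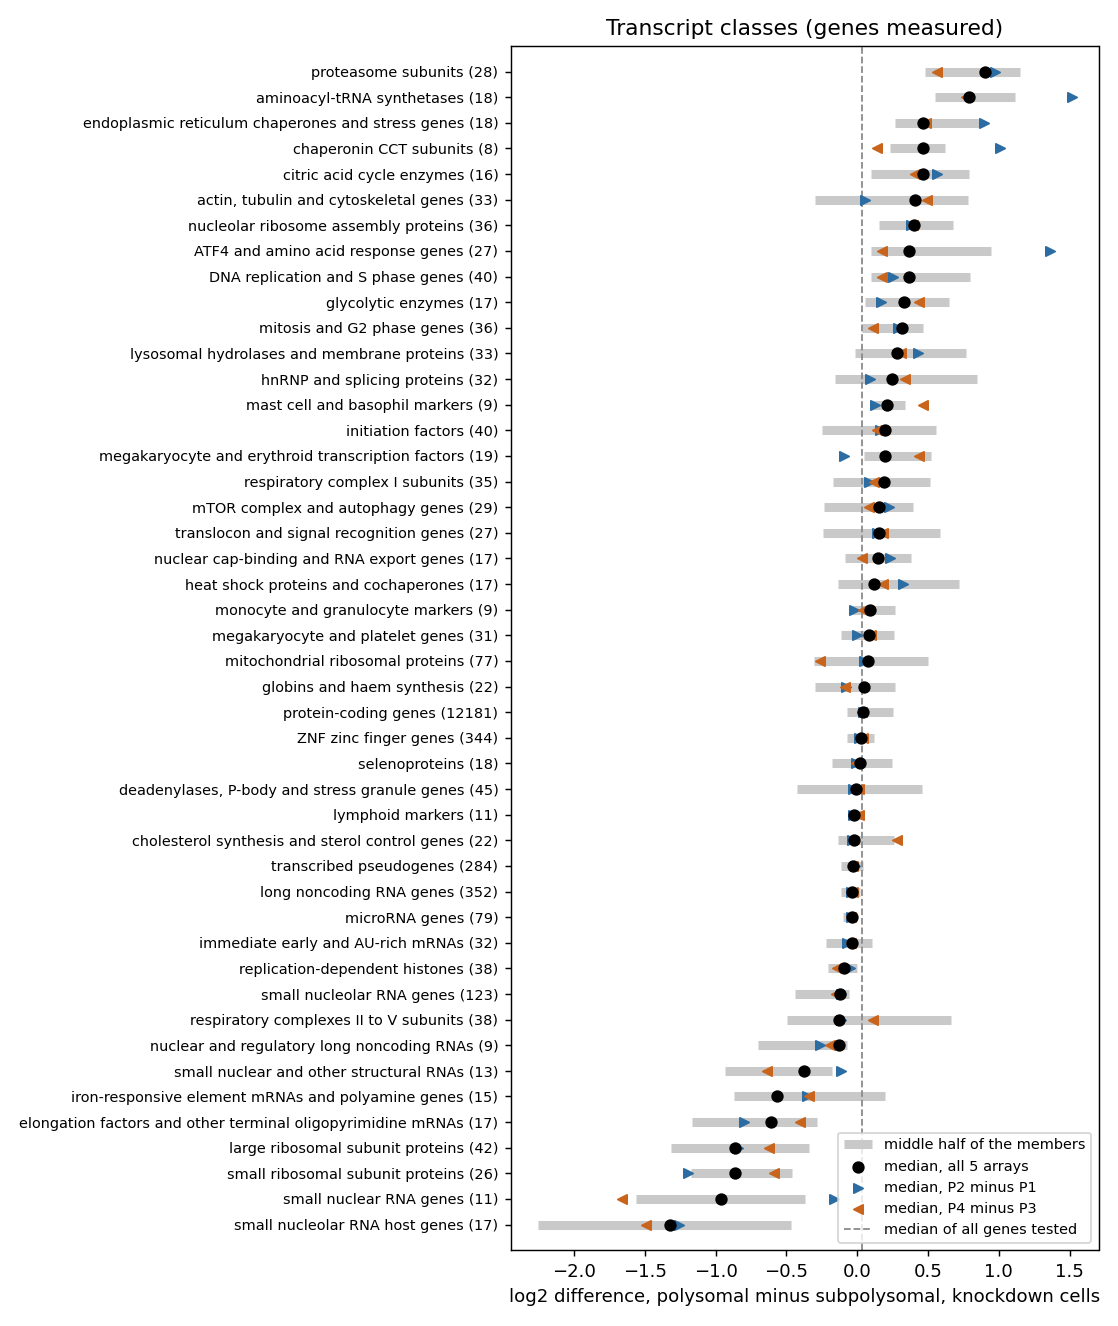
Median log2 difference, polysomal minus subpolysomal RNA of knockdown cells, for each gene list and gene type (genes measured in brackets); grey bars run from the lower to the upper quartile of the members, triangles give the medians within P2 minus P1 and within P4 minus P3, and the dashed line is the median of all genes, 0.03. Small nucleolar RNA host genes (-1.32) and ribosomal proteins (-0.86) lie at the low end and proteasome subunits (0.90) at the high end.

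Ribosomal protein mRNAs were relatively poor in the polysomal pool. The 42 measured proteins of the large subunit had a median of -0.86 (37 below 0) and the 26 of the small subunit -0.86 (22 below 0). RPS4X, a core protein of the small subunit (chromosome X), was the 1 called member. It read 12.98 and 12.46 in subpolysomal RNA and 11.49, 11.32 and 11.06 in polysomal RNA, 2.70-fold lower with no overlap (-1.43, SE 0.17, adjusted p 0.0388, and 0.086 with the P number as a block). Its second probe read -1.52 and was not called. One of 4 probes of RPS29, not the brightest, was also called (-3.06, SE 0.18, adjusted p 0.00356), while the brightest read -1.07 and the others -1.48 and -1.24.

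The members spread widely and the arrays of a pool did not agree on their level. RPL12 read 12.11 and 13.27 in subpolysomal RNA and 9.53, 10.89 and 9.44 in polysomal RNA (-2.74, SE 0.62, adjusted p 0.226). RPL23A read 11.35 and 10.74 against 8.84, 8.62 and 9.81 (-1.95, SE 0.45, adjusted p 0.233). RPS28 read 11.98 and 13.18 against 9.27, 11.73 and 10.95 (-1.93, SE 0.93), and RPS12 14.33 and 14.25 against 11.77, 13.40 and 12.63 (-1.69, SE 0.43). In RPL12, RPL23A, RPS28 and RPS12, the lowest members, the pools did not overlap. Every polysomal array was below both subpolysomal arrays in 9 of the 42 large subunit genes (21.4%) and 8 of the 26 small subunit genes (30.8%). Over all genes the share was 9.33%. RPLP2 of the ribosomal stalk (0.22), RPL18 (0.26), RPS19 (0.21) and RPS16 (0.37) were the highest members, but each turned negative, to between -1.36 and -1.15, with the deposited values and with median centring. All 4 are bright, reading between 13.52 and 14.38 on the knockdown arrays. Relative to all genes the large and small subunit medians were -0.90 and -0.90 as reported, -1.63 and -1.56 with the deposited values, and -1.05 and -1.03 with cyclic loess, so the direction of both lists held under each scaling. The size rested on single arrays: without subpolysomal P3 the 2 medians were -0.21 and -0.22, without polysomal P2 -0.32 and -0.41, without subpolysomal P1 the large subunit stood at -1.56, and without polysomal P4 the small subunit at -1.44. Within pairs the large subunit stood at -0.84 and -0.62 and the small subunit at -1.20 and -0.59. In control cells the medians were -0.34 and -0.39. The median change of the pool difference with knockdown was -0.23 for the large and -0.27 for the small subunit. For that change 0 members were called by limma, and 0 had an unadjusted p under 0.05.

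**Figure D4:**
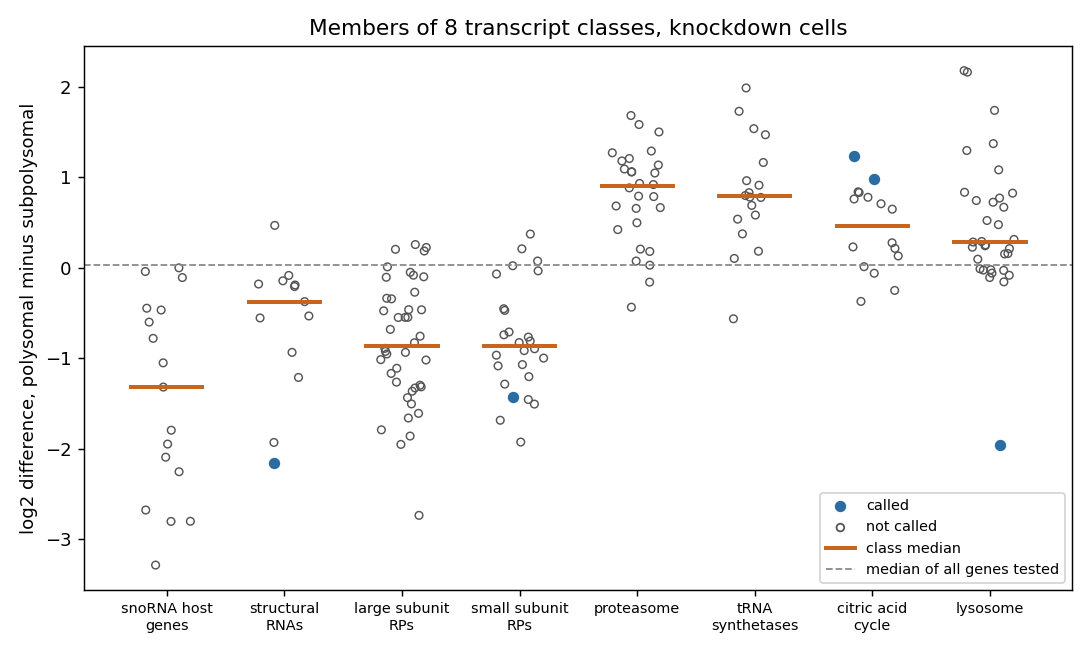
Log2 difference, polysomal minus subpolysomal RNA of knockdown cells, of each measured member of 8 classes; filled points were called by limma, orange bars are class medians and the dashed line is the median of all genes. Most ribosomal protein genes (RPs) lie below the line, and 26 of 28 proteasome genes lie above 0.

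The start sequences show the tract that sets many of these mRNAs apart from other genes. A pyrimidine start was searched on the strand of the gene only, as a C followed by at least 4 bases that are each C or T, beginning within 3 bases of the RefSeq start (GRCh38.p14). It was found in 4574 of 35116 RefSeq start windows (13.03%) and in 1992 of the 10372 measured genes with a window (19.2%). A gene was counted if any of its windows had one, so the share of genes and the share of windows are not on the same base. Among large subunit proteins 30 of 35 had one (85.7%), among small subunit proteins 19 of 23 (82.6%), and among proteasome subunits 5 of 24 (20.8%). The median difference was 0.02 for the 1992 genes with a pyrimidine start and 0.05 for the 8380 without one. Within lists the medians with and without it were -0.82 and -0.83 for large subunit proteins, -0.83 and -0.92 for small subunit proteins, -0.41 and -1.05 for TOP mRNAs, and 0.50 and 0.92 for the proteasome. Of 12 genes of the TOP list with a window 10 had a pyrimidine start. The medians without it in the TOP and ribosomal lists, and with it in the proteasome, thus rest on very few genes. These differences were not tested. The following starts, chosen after their values were seen, run from 10 bases before to 20 bases after the RefSeq start, 5′ to 3′, with the tract in capitals. RPL13 (chr16:89560672-89560701, plus strand), RPS12 (chr6:132814559-132814588, plus strand) and RPLP2 (chr11:809957-809986, plus strand) are shown as ribosomal protein starts with a tract, and their differences were -1.86, -1.69 and 0.22 (for RPLP2 -1.24 with the deposited values). RPL13 has 3 listed starts, of which only 1, the one shown, has the tract. EEF1A1 (chr6:73521013-73521042, minus strand) and TPT1 (chr13:45341164-45341193, minus strand) are textbook TOP mRNAs that stood at -0.30 and 0.06. RPS4X (chrX:72277229-72277258, minus strand) is shown as the called member, and has no such letters in this window.
RPL13: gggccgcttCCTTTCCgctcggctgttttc
RPS12: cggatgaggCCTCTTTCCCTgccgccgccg
RPLP2: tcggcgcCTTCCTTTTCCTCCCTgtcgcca
EEF1A1: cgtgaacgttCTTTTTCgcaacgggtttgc
TPT1: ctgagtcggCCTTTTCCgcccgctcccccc
RPS4X: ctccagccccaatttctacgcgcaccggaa

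Elongation factors and other TOP mRNAs lay with the ribosomal proteins. The 17 measured had a median of -0.61, 14 of them below 0, and in 7 of 17 every polysomal array was below both subpolysomal arrays (41.2%, against 9.33% of all genes), with no call. Their median relative to all genes was -0.65 as reported, -1.61 with the deposited values or median centring, -0.87 with cyclic loess, -0.41 without polysomal P2 and -0.38 without subpolysomal P3. PABPC1, the poly(A)-binding protein that binds ATXN2, read 13.84 and 14.01 in subpolysomal RNA and 11.77, 13.24 and 11.47 in polysomal RNA (-1.77, SE 0.55, adjusted p 0.42). In control cells it read 14.02 and 14.11 against 11.71, 12.91 and 12.27, a difference of -1.77 as well. EEF1G, a subunit of elongation factor 1, read 10.9995 and 14.11 against 8.87, 13.40 and 10.93 (-1.49, SE 1.88), with the 2 subpolysomal arrays farther apart than the means of the pools. NACA and BTF3, the 2 chains of the nascent polypeptide-associated complex, stood at 0.16 and 0.42, but at -1.32 and -1.12 with the deposited values. A second NACA probe read -0.43, and the other BTF3 probes -0.32 and 0.31. The initiation factors as a list showed no such shift, with a median of 0.20 and members on both sides. EIF4A3, an RNA helicase of the exon junction complex, read 10.92 and 10.08 against 12.52, 12.10 and 12.52 (1.88, SE 0.37, adjusted p 0.153). EIF3B, the scaffold subunit of eIF3, read 11.34 and 10.99 against 12.75, 12.74 and 13.69 (1.90, SE 0.61), and its other probes read 0.45 and 1.13. EIF2S3, the GTP-binding subunit of eIF2, read 10.47 and 11.03 against 8.39, 9.62 and 9.61 (-1.54, SE 0.44), and EIF3F stood at -1.45 (SE 0.98). The 77 mitochondrial ribosomal protein mRNAs had a median of 0.08.

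Aminoacyl-tRNA synthetases, which charge tRNAs with amino acids, were on the polysomal side. Of 18 measured 17 lay above 0, with a median of 0.79 and no call. In 5 of 18 every polysomal array was above both subpolysomal ones, a pattern seen in 1883 of all genes (14.4%). YARS1, for tyrosine, read 11.04 and 11.47 against 13.05, 12.81 and 13.10 (1.73, SE 0.27, adjusted p 0.0772). WARS1, for tryptophan, read 10.52 and 10.62 against 13.85, 12.24 and 11.58 (1.99, SE 0.72, adjusted p 0.529). QARS1 was the 1 member below 0 (-0.56), and KARS1 stood at 0.10 (-0.00 with median centring, where the median of all genes was -0.08). The list's median was 1.52 within P2 minus P1 and 0.77 within P4 minus P3, and 0.15 in control cells. The value relative to all genes was 0.76, with 0.56 without polysomal P2 and 1.16 without polysomal P5. It was 0.53 with the deposited values or median centring. The median change of the pool difference with knockdown was 0.69, with 0 of 18 members called for that change and 1 at an unadjusted p under 0.05. Nucleolar ribosome assembly proteins had a median of 0.40, 31 of 36 above 0, with no call. BOP1 stood at 1.83 (SE 0.68) and the pseudouridine synthase DKC1 at 1.32 (SE 0.28), while NHP2 (-0.64) and NOP56 (-0.53) were the lowest.

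Proteasome mRNAs had the highest median of the 40 lists, 0.90. Of 28 measured subunits 26 lay above 0, and in 15 of 28 the polysomal arrays were all above the subpolysomal ones (53.6%, against 14.4% of all genes), but none was called. PSMB6, a catalytic subunit of the core, read 11.17 and 11.65 in subpolysomal RNA and 13.46, 12.65 and 13.16 in polysomal RNA (1.68, SE 0.29, adjusted p 0.101). PSMA4, an outer ring subunit, read 12.18 and 11.19 against 13.95, 12.62 and 13.23 (1.58, SE 0.53, adjusted p 0.468), and its second probe read 0.35. PSMB4 (-0.16) and PSMB5 (-0.44, SE 1.03) were the 2 below 0. The list stood at 0.97 and 0.57 within the pairs, and at 0.70 in control cells. Relative to all genes its median was 0.87, and 0.39 with the deposited values or median centring and 0.54 without polysomal P2. The 8 subunits of the chaperonin CCT, which folds actin and tubulin, had a median of 0.46, with 7 above 0, but relative to all genes the median of 0.43 became 0.03 without polysomal P2, 0.69 without polysomal P4, 0.75 without subpolysomal P1 and 0.23 without subpolysomal P3. Heat shock proteins and cochaperones had a median of 0.12, and -0.07 with the deposited values. Among them HSPB1, a small heat shock protein, read 11.84 and 12.45 against 9.49, 10.28 and 10.12 and did not pass (-2.18, SE 0.29, adjusted p 0.0589).

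Endoplasmic reticulum chaperones and stress genes also lay above 0, in 17 of 18 members with a median of 0.46. In 9 of 18 the polysomal arrays were all above the subpolysomal ones (14.4% of all genes), and none was called. XBP1, the transcription factor of the unfolded protein response, read 11.29 and 10.35 against 13.77, 11.01 and 12.08 (1.47, SE 1.00), and DNAJB11, a cochaperone of BiP, 10.07 and 10.31 against 12.16, 10.92 and 11.05 (1.18, SE 0.66). DNAJB9 (-0.06) and PDIA6 (0.22) were the lowest. ATF4 and amino acid response genes had a median of 0.37, with 22 of 27 above 0, but this was 1.36 within P2 minus P1 and 0.17 within P4 minus P3. Relative to all genes it was 0.33, and 0.12 to 0.62 with each knockdown array left out. PHGDH, of serine synthesis, read 9.26 and 11.59 against 13.31, 12.81 and 10.67 (1.84, SE 1.30), and DDIT4, an inhibitor of mTORC1, 9.74 and 10.10 against 13.84, 10.35 and 9.78 (1.40, SE 1.18). In PHGDH and DDIT4 polysomal P2 was the highest array and polysomal P5 lay within the subpolysomal range. ATF4 itself, whose translation is held back by upstream reading frames until eIF2 is phosphorylated, stood at -0.43 (SE 0.65), with DDIT3 at -0.35 (SE 0.60). The median change of the ATF4 list with knockdown was 0.51, with no member at an unadjusted p under 0.05.

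The list of citric acid cycle genes, which also takes in the cytosolic MDH1, held 2 of the 6 genes called higher. MDH1, the cytosolic malate dehydrogenase (chromosome 2), read 10.997 and 10.97 in subpolysomal RNA and 12.46, 12.12 and 12.07 in polysomal RNA. It was 2.35-fold higher with no overlap (1.23, SE 0.13, adjusted p 0.0325, and 0.0916 with the P number as a block). MDH2, the mitochondrial enzyme (chromosome 7), read 12.74 and 12.71 against 13.62, 13.70 and 13.79, 1.97-fold higher (0.98, SE 0.08, adjusted p 0.0134), but it stood at -0.17 with the deposited values and -0.28 with median centring. The RefSeq starts of both genes are shown for comparison with those of the ribosomal proteins. MDH2 (chr7:76048096-76048125, plus strand) has a pyrimidine start. MDH1 (chr2:63588953-63588982, plus strand) has no tract that begins within 3 bases of the start, though a run of pyrimidines ends just before it.
MDH1: cgccctctccgagtcagttccgcggtagag
MDH2: cgttggagtcaCTTCCCCgtcaccagctcc

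Of the 16 measured genes of this list, MDH1 and MDH2 included, 13 lay above 0. The median was 0.46 (0.57 and 0.41 within the pairs, 0.38 in control cells). In 8 of 16 all polysomal arrays were above the subpolysomal ones (14.4% of all genes). Citrate synthase CS (-0.25) and the mitochondrial isocitrate dehydrogenase IDH2 (-0.37, SE 0.93) were the lowest. Glycolytic enzymes stood at a median of 0.33, and at -0.02 with median centring (0.06 relative to all genes). Complex I subunits stood at 0.19 (-0.01 with the deposited values) and subunits of complexes II to V at -0.13. No member of these lists was called. Without subpolysomal P1 or P3 in turn, complexes II to V stood, relative to all genes, at -0.68 and 0.59, complex I at -0.0019 and 0.50 and glycolytic enzymes at 0.10 and 0.80.

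The other 4 mRNAs called higher are not linked by a list. SRRT, a partner of the nuclear cap-binding proteins (chromosome 7), read 9.88 and 9.91 in subpolysomal RNA and 10.96, 10.96 and 11.03 in polysomal RNA. The arrays of each pool lay close together, and the difference of 1.09 (SE 0.06, 2.13-fold, adjusted p 0.00356) had the smallest adjusted p among the 18 genes. SRRT remained called without each polysomal array in turn, and not without either subpolysomal array. LRP5, a Wnt coreceptor (chromosome 11), read 8.68 and 8.45 against 9.75, 9.82 and 9.83, 2.35-fold higher (1.23, SE 0.12, adjusted p 0.0253), while its second probe read 0.19. DCAF7, a WD-repeat adaptor protein (chromosome 17), read 9.71 and 9.61 against 10.74, 10.93 and 10.63 (1.11, SE 0.11, adjusted p 0.0253, and 0.0546 with the P number as a block). CCDC32 (chromosome 15) read 9.18 and 9.21 against 10.13, 10.01 and 10.05 (0.87, SE 0.09, adjusted p 0.0325, and 0.0541 with the block), with a second probe at 0.16. In LRP5, DCAF7 and CCDC32 every polysomal array lay above both subpolysomal ones.

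The next 5 genes by p on this side were not called. KPNB1, the nuclear import receptor importin beta, read 11.42 and 11.51 against 13.23, 12.83 and 12.98 (1.55, SE 0.20, adjusted p 0.0554). FSCN1, the actin-bundling fascin, read 9.59 and 10.08 against 11.24, 11.35 and 11.39 (1.49, SE 0.20, adjusted p 0.0598). ITM2B stood at 1.47 (SE 0.21, adjusted p 0.0696) and the lysosomal membrane protein SCARB2 at 0.77 (SE 0.11, adjusted p 0.0641). FTO, an RNA demethylase, was above background only in polysomal RNA, at least 1.27-fold higher there (adjusted p 0.0598).

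Lysosomal mRNAs were mostly on the polysomal side, with 1 called exception. Of 33 measured 24 lay above 0 with a median of 0.28, and in 13 of 33 all polysomal arrays were above the subpolysomal ones (39.4%, against 14.4% of all genes). PSAP, the saposin precursor, read 10.66 and 11.15 against 13.40, 13.03 and 12.82 (2.18, SE 0.46, adjusted p 0.185), the largest positive difference of all genes measured. CTSL, a cathepsin, read 11.34 and 11.12 against 13.44, 13.67 and 13.07 (2.16, SE 0.51, adjusted p 0.24). A second PSAP probe read 2.21, and the other CTSL probes 0.29 and 2.19. IDS, the iduronate sulfatase (chromosome X), went the other way, at 10.03 and 9.89 in subpolysomal RNA against 8.00, 8.11 and 7.90 in polysomal RNA. It was 3.89-fold lower with no overlap (-1.96, SE 0.23, adjusted p 0.0376, and 0.0541 with the P number as a block). A second IDS probe was called as well (-1.12) and the third read -0.34.

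The remaining called mRNAs were lower in polysomal RNA by 1.39-fold to 3.44-fold. TLE5, a short corepressor of the Groucho family (chromosome 19), read 10.95 and 11.25 against 8.97, 9.55 and 9.43 (-1.78, SE 0.20, adjusted p 0.0376, and 0.086 with the block). FAAP20, of the Fanconi anaemia core complex (chromosome 1), read 9.81 and 10.14 against 8.07, 8.31 and 8.26 (-1.76, SE 0.13, adjusted p 0.0116). NTAN1, an amidohydrolase of the N-degron pathway (chromosome 16), read 9.38 and 9.67 against 7.87, 7.91 and 7.75 (-1.68, SE 0.16, adjusted p 0.0253). In TLE5, FAAP20 and NTAN1 both subpolysomal arrays stood more than 1 log2 unit above every polysomal array. SLC27A5, a bile acid and fatty acid CoA ligase (chromosome 19), differed by -1.28 (SE 0.14, adjusted p 0.0376), and RNF11, a RING finger protein (chromosome 1), by -1.23 (SE 0.15, adjusted p 0.0449, and 0.122 with the block). FAM219B (chromosome 15) differed by -0.89 (SE 0.10, adjusted p 0.0376, and 0.086 with the block) and UBXN8 (chromosome 8) by -0.48 (SE 0.05, adjusted p 0.0376, and 0.0561 with the block). The pools did not overlap in any of SLC27A5, RNF11, FAM219B and UBXN8. Second probes of TLE5 (-0.83), FAAP20 (-0.66) and UBXN8 (-0.26) had the same sign and were not called.

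Among genes that did not pass, NME4, a mitochondrial nucleoside diphosphate kinase, read 12.07 and 11.42 against 8.89, 8.83 and 9.51 (-2.67, SE 0.34, adjusted p 0.051). C8orf88 stood at -1.78 (SE 0.23, adjusted p 0.0554, and 0.044 with the P number as a block) and TMEM42 at -0.74 (SE 0.10, adjusted p 0.0598). A second C8orf88 probe read -0.27. Selenoproteins, which read UGA as selenocysteine, split: SELENOW read 9.83 and 10.21 against 7.85, 8.11 and 8.57 (-1.84, SE 0.25, adjusted p 0.0641) and GPX4 stood at -1.74 (SE 0.80), while SELENOS stood at 0.72 and SELENOF at 0.60. The median of the 18 measured was 0.02.

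The 45 measured deadenylase, P-body and stress granule genes had a median of -0.01, with 22 above and 23 below 0 and no gene called. CNOT7, a catalytic deadenylase of the CCR4-NOT complex, read 9.78 and 10.71 against 8.22, 9.05 and 8.22 on its brightest probe (-1.75, SE 0.47, adjusted p 0.325), and 1 of its 2 dimmer probes was called (-1.27, SE 0.10, adjusted p 0.0134). CNOT1, the scaffold of the same complex, stood at 1.54 (SE 0.85), and the stress granule protein G3BP2 read 9.99 and 9.86 against 11.20, 11.11 and 10.87 (1.13, SE 0.19, adjusted p 0.1). The other G3BP2 probes read 0.24 and 0.27. Immediate early and AU-rich mRNAs stood at -0.04. Of the nuclear cap-binding and RNA export genes, SRRT apart, POLDIP3 stood at 0.78 (SE 0.22), NXT1 at -0.52 (SE 0.85) and THOC2 at -0.23 (SE 0.20), and the median of 17 was 0.15.

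The 31 measured megakaryocyte and platelet genes had a median of 0.08, with 7 wholly above in polysomal RNA (22.6%, against 14.4% of all genes), 3 wholly below (9.68%, against 9.33%) and no call. PTGS1, the cyclooxygenase of platelets, read 9.48 and 9.29 against 10.49, 11.03 and 10.11 (1.16, SE 0.39, adjusted p 0.46), and FERMT3, the integrin activator kindlin-3, 10.36 and 10.98 against 11.52, 12.21 and 11.39 (1.04, SE 0.38). Second probes of PTGS1 and FERMT3 read 0.11 and 0.25. P2RY1, an ADP receptor, read 9.82 and 9.10 against 8.68, 8.48 and 8.38 (-0.95, SE 0.35), and its second probe read -0.22. TREML1 was not above background in polysomal RNA, at least 1.23-fold lower there (adjusted p 0.237). Megakaryocyte and erythroid transcription factors stood at 0.20, globins and haem synthesis genes at 0.05, mast cell and basophil markers at 0.21, monocyte and granulocyte markers at 0.09 and lymphoid markers at -0.02.

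Other gene groups gave medians between those of ribosomal proteins and the proteasome, with no call in any of them. Iron-responsive element mRNAs and polyamine genes, many under translational control by iron regulatory proteins or by polyamines, stood at -0.56 with 9 of 15 below 0. DNA replication and S phase genes stood at 0.36 (33 of 40 above 0), mitosis and G2 phase genes at 0.32 (27 of 36), and hnRNP and splicing proteins at 0.25 (22 of 32). Set against all genes, the replication list went from 0.33 to 0.15 and the mitosis list from 0.28 to 0.05 without subpolysomal P3. Actin, tubulin and cytoskeletal genes stood at 0.41, but at -0.04 with the deposited values. The translocon and signal recognition genes stood at 0.15, mTOR complex and autophagy genes at 0.16, cholesterol synthesis genes at -0.02 and 344 ZNF zinc finger genes at 0.03. Base composition of the transcript start made little difference: from the lowest to the highest quartile of G+C in the first 50 bases, the medians were 0.02, 0.06, 0.07 and 0.03.

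The same pool difference was measured in control cells, whose arrays deviate together with the knockdown arrays of the same P number, so that the 2 differences are not independent. In control cells 3 probes (0.0122%) were called higher and 30 (0.122%) lower. By gene 3 were higher (0.023%) and 14 lower (0.107%), and 11 of these 17 were also called in knockdown cells, and all 18 knockdown calls had the same sign in control cells. The fit gives each gene the same SE for both hairpins, so a gene with a small SE is favoured in both sets of calls. For MDH1, DCAF7, SRRT and MDH2 the differences were 0.84, 0.44, 0.76 and 0.56 in control cells against 1.23, 1.11, 1.09 and 0.98 with knockdown. For CCDC32, TLE5, FAM219B and RNF11 they were 0.99, -2.07, -1.21 and -1.38 in control cells against 0.87, -1.78, -0.89 and -1.23 with knockdown. All of these genes were chosen for their calls in knockdown cells. For RNU6-1 it was -1.10 against -2.16, with control arrays at 9.45 and 9.47 in subpolysomal and 8.33, 8.38 and 8.38 in polysomal RNA. The change of the pool difference with knockdown was called for 0 of 24501 probes by limma (0%), with 214 at an unadjusted p under 0.05 (0.873%). This fit does not use the pairing of the hairpins by P number. Variation shared by paired arrays stays in its SE, which tends to make its tests of the change conservative. Its tests of the pool difference count the paired arrays as independent, which can make their p-values too small. With the P number as a random block 0 probes were called for the change as well. The lack of calls does not show that the pool difference stayed the same with knockdown. RNU6-1 and DCAF7 were among the 4 genes with the smallest p for that change, at -1.06 and 0.67 (unadjusted p 0.00205 and 0.00305, limma adjusted p 1.00 for both). PFKP, a phosphofructokinase of glycolysis, was another, at 11.09 and 11.04 against 11.66, 11.64 and 11.84 with knockdown, and 10.99 and 11.15 against 10.62, 11.12 and 10.69 in control cells.

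**Figure D5:**
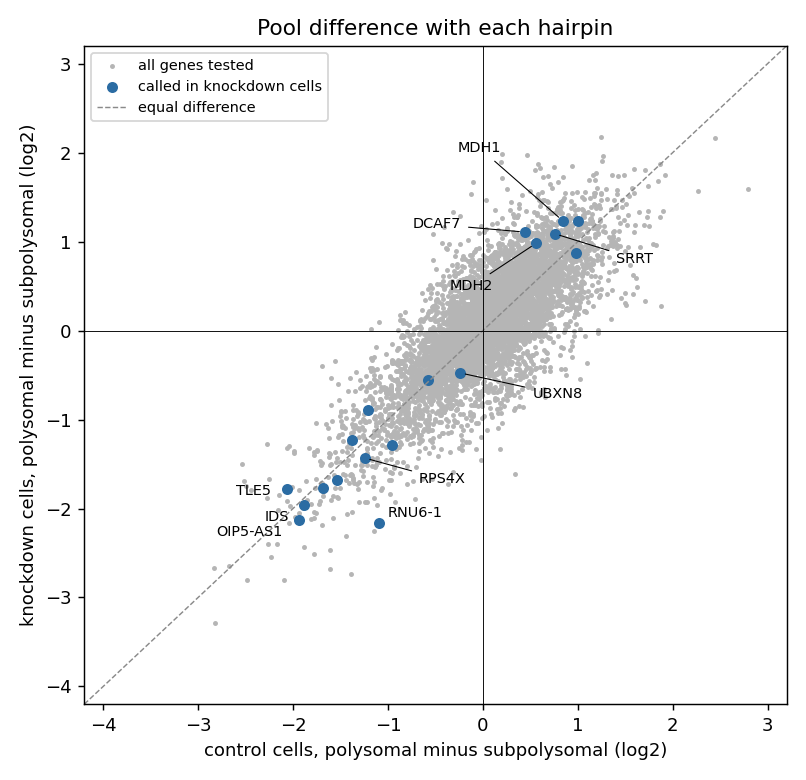
Log2 difference between polysomal and subpolysomal RNA of each of 13067 genes in control cells (horizontal) and in ATXN2 knockdown cells (vertical); blue points are the 18 genes called in knockdown cells and the dashed line marks equal differences. The called genes lie to the lower left and upper right of the origin.

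With the pairing of P1 with P2 and P3 with P4 taken as a block, an arrangement read from the arrays themselves and not from the labels, the calls were more numerous. In that fit 205 genes were higher (1.57%) and 160 lower (1.22%) in polysomal RNA of knockdown cells, and all 18 genes above were among them. Lists with at least 3 members called in it were the following. Higher were 4 of 33 lysosomal, 4 of 27 translocon, 4 of 32 hnRNP, 3 of 36 nucleolar assembly and 3 of 45 deadenylase genes. Lower were 5 of 17 small nucleolar RNA host genes, 3 of 42 large and 3 of 26 small subunit proteins, 3 of 45 deadenylase genes and 4 of 344 ZNF genes. By gene type 9 of 123 small nucleolar RNAs, 8 of 352 long noncoding RNAs and 3 of 284 transcribed pseudogenes were lower. Of 12181 protein-coding genes 204 were higher and 138 lower.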

How the data were processed

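RNA of 2 pools and 2 hairpins was hybridized to 10 Illumina beadchips. The intensity values used are those the authors deposited for 47323 probes, on a linear scale with array medians of 193 to 194. How the authors normalized them is not stated in the labels or headers. R 2.15 appears in the submitters' processing notes. A second table has 20 per-sample columns (10 of signal) whose headings match no label, and these were not used.

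Here the intensities were put on the log2 scale, and quantile normalization was applied across the 10 arrays. Background was modelled per array by mirroring the log2 values below their mode, with the upper 0.05 tail as threshold. Probes above it on at least 2 arrays were kept (24501, 51.8%), of which 17395 carried 1 gene symbol. On the whole array 30113 probes had 1 symbol, 8 several and 17202 none, from the platform annotation, and 30074 were matched to RefSeq of GRCh38.p14. No probe positions are given, since no label or header names a build for them. Start sequences are RefSeq's for GRCh38.p14.

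All kept probes of the 10 arrays entered a single limma fit with a mean for each of 4 groups (limma 3.58.1 in R 4.3.3, with eBayes), two-sided, with Benjamini-Hochberg adjustment. Every adjusted p is from limma. The number of arrays limits the precision. A gene is represented by its brightest kept probe. Lists (40, with 1190 genes, 1084 on the array and 1006 measured) were described by counts and medians, without a test. The members and lists were chosen with earlier results of these data known. Named genes are all called genes, the next 5 by p in each direction, the 2 highest and 2 lowest of each list described, ATXN2, the 4 genes with the smallest p for the change with knockdown and genes called with both hairpins. Members of other lists are given by counts and medians, and RPL13, EEF1A1, TPT1 and the probes that are not a gene's brightest were named after their values were seen.

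Arrays of the 2 hairpins that share a P number deviate together (correlation of deviations from the group means 0.918, 0.764, 0.918, 0.770 and 0.468 for P1 to P5), so the numbers pair the hairpins. Since no number occurs in both pools, it can enter the pool comparison only as a random block, with a consensus correlation of 0.582. Alternatives were other normalizations and filters, the fit to the knockdown arrays alone, a trended prior, the mean of a gene's probes, and leaving out each knockdown array. The block of P1 with P2 and P3 with P4 and the fit without control polysomal P2 were added after seeing the data. The fit was tested on simulated data with known changes. The simulated noise was independent between arrays, without the shared deviation of arrays with the same P number. It therefore cannot show how often the fit makes false calls in these data. Classes of protein length were planned and are not analysed here.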

Additional observations from a re-analysis of the deposited data

Results flagged for a closer look

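BMP10, a bone morphogenetic protein, had pool differences of opposite sign with the 2 hairpins. Its pool difference was -0.19 with knockdown and 0.10 in control cells, a change of -0.29 (SE 0.06). The change was tested in limma and did not pass (unadjusted p 0.00236, adjusted p 1.00). BMP10 read 7.67 and 7.70 in subpolysomal RNA of knockdown cells and was above background on no other array, so the difference in control cells lies between values below background.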

How the results depend on the processing

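Counts of probes called moved with most choices. Higher and lower were 6 and 36 as reported, 2 and 22 with the deposited values, 2 and 66 with median centring, 11 higher with cyclic loess, 2 higher over probes above background on every array, 0 and 0 with only the knockdown arrays or a trended and robust prior, and 3 and 16 with the replicate block. Added after seeing the data, the block of P1 with P2 and P3 with P4 gave 242 and 302, and leaving out control polysomal P2 gave 11 and 22. With each knockdown array left out they were 0 to 2 and 1 to 10, and the change with knockdown was called for 0 to 1 probes. With the deposited values and median centring the sign turned for MDH2 (-0.17 and -0.28), RPLP2 (-1.24, -1.34), RPL18 (-1.21, -1.31), RPS19 (-1.26, -1.36), RPS16 (-1.15, -1.25), NACA (-1.32, -1.42), BTF3 (-1.12, -1.22) and RN7SL1 (-0.86, -0.96). Median centring also turned KARS1 (-0.0017) and HCP5 (-0.035), though both stayed above the median of all genes under it (-0.076). Cyclic loess turned RPLP2 (-0.032), RPL18 (-0.039), RPS19 (-0.17), NACA (-0.13, as did the mean of its probes, -0.13) and BTF3 (-0.087). The added block turned DNAJB9 (0.17), SNHG10 (0.021) and the deadenylase list (0.0082, and 0.0072 with no filter). With 1 array left out the sign also turned, within ranges, for RPL18 (-0.074 to 0.59), RPS19 (-0.084 to 0.50), EEF1G (-3.04 to 0.066), KARS1 (-0.065 to 0.27), PSMB5 (-1.57 to 0.69), PSMB4 (-0.48 to 0.17), DNAJB9 (-0.61 to 0.49), PDIA6 (-0.29 to 0.73), ATF4 (-0.99 to 0.070), DDIT3 (-1.02 to 0.33), SNHG10 (-0.065 to 0.069), KCNQ1OT1 (-0.029 to 0.028), IDH2 (-1.45 to 0.70), NOP56 (-1.11 to 0.039), ASAH1 (-0.46 to 0.15), NXT1 (-1.22 to 0.18) and THOC2 (-0.48 to 0.031). Relative to all genes, lists turned too: complexes II to V (-0.68 to 0.59), heat shock proteins (-0.43 to 0.68), cholesterol genes (-0.30 to 0.21), globins and haem genes (-0.14 to 0.14), complex I (-0.017 to 0.50), mitochondrial ribosomal proteins (-0.052 to 0.18), megakaryocyte and platelet genes (-0.024 to 0.098), selenoproteins (-0.049 to 0.079), ZNF genes (-0.074 to 0.039), mast cell markers (-8.2e-05 to 0.36), initiation factors (-0.045 to 0.27), megakaryocyte and erythroid transcription factors (-0.0040 to 0.33), monocyte markers (-0.023 to 0.064) and deadenylases (-0.056 to 0.11). The cause of these turns was not tested. Normexp with control probes was not run. Signal over background limits what could be measured: 11094 of 47323 probes were above background on every array. Nothing in the labels says whether arrays of a group are separate cultures beyond the 3 experiments, so p-values measure the spread between these arrays.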
